A study of Drosophila melanogaster with 5 samples.

Results

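To ask which regions are accessible in enteroendocrine cells (EEs) only once Prospero (Pros) is depleted, the ATAC-seq peaks of Pros-depleted EEs were set against those of the normal cell types of the adult Drosophila midgut. Overlapping or touching peaks of 5 lists were merged into 15196 regions on the 6 arms of the assembled genome (X, 4 and the arms of the large autosomes). The gained regions were chosen by these peak calls alone: each has a peak in Pros-depleted EEs and none in EEs, progenitor cells or enterocytes (ECs). There were 575 of them among the 8184 regions with a Pros-depleted EE peak, a share of 7.03% (95% Wilson interval 6.49 to 7.60), and each held exactly 1 peak. The other 7609 regions of Pros-depleted EEs, which share a peak with a normal cell type, serve as the comparison. The count itself is fixed by the rule and was not tested. Each population had 1 library. Pros-depleted EEs were GFP+ cells of prosV1-Gal4ts UAS-GFP flies that carried UAS-pros-RNAi. Ttk-depleted ECs came from Myo1A-Gal4ts UAS-GFP flies with UAS-ttk-RNAi and pros-mCherry, sorted as GFPweak mCherry+ cells. The normal cells were GFP+ cells of prosV1-Gal4ts UAS-GFP flies (EEs), esg-Gal4ts UAS-GFP flies (progenitor cells) and Myo1A-Gal4ts UAS-GFP flies (ECs). All flies were females of 5 to 7 days, shifted from a permissive temperature to 29 °C for 7 days to release the Gal80ts block on the driver. About 40000 cells were sorted from a pool of 100 to 150 guts per library. Each population is thus a bulk sort of pooled animals, defined by driver activity. The pros-RNAi line used for ATAC-seq is not named in the sources used here. The peak names carry a replicate number, or for progenitor cells the mark "5w", which no source used here explains.

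Pros is a homeodomain transcription factor that EEs, the hormone-secreting cells of the gut lining, need for their identity. Progenitor cells (intestinal stem cells and enteroblasts, marked by the Snail-family factor Esg) renew the gut lining and give rise to EEs and to ECs, the large absorptive cells. In ATAC-seq, the transposase Tn5 cuts accessible DNA, and peaks fall at promoters and at enhancers in introns and between genes. The 3 markers of ECs and the 5 of progenitor cells had peaks in their gene body or within 3 kb in all 4 long lists, so such peaks do not tell these cell types apart. Of the 4 EE markers, 3 had a peak in Pros-depleted EEs, 4 in EEs, 3 in progenitor cells and 2 in ECs. Tk, a peptide hormone gene, had 0 peaks in Pros-depleted EEs and 2 in EEs. AstC, another, had 1 peak in Pros-depleted EEs and 2 in EEs. In the same order, Rab3 had 1 and 2, while pros had 12 and 11. The reads per library are unknown. The lowest local background that the authors' peak values imply was 7.75 fragments in Pros-depleted EEs, 9.92 in EEs, 12.4 in progenitor cells and 14.9 in ECs, so the list that defines the gained regions had the lowest of the 4. In Ttk-depleted ECs it was 0.422 fragments. A missing peak is not closed chromatin, and regions are not replicates: intervals on shares cover counting error only.

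Sequences of 8 gained regions were picked, not ranked, to show the pair of strongest intronic regions, 3 of the 10 strongest regions at promoters, introns of the Wnt inhibitor nkd and of the EC factor nub, and the exonic peak at pros. Each line gives the summit base with 50 bp to each side, on the plus strand of the Release 6 (BDGP6) reference. Capitals mark exact matches, on either strand, to the motifs described with the motif shares.
flw intron, X:10397650-10397750: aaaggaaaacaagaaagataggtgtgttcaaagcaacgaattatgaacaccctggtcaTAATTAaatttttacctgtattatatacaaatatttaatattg
Meltrin intron, 3R:14680462-14680562: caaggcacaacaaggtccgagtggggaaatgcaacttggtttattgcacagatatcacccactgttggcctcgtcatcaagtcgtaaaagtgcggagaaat
btsz promoter, 3R:14854030-14854130: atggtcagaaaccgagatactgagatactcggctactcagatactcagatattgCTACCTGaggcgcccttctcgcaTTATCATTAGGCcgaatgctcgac
PKD promoter, 3R:18311618-18311718: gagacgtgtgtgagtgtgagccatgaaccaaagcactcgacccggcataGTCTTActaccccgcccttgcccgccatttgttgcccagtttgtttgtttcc
Msp300 promoter, 2L:5151335-5151435: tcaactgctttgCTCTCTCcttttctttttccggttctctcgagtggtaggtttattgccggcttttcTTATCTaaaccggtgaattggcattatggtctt
nkd intron, 3L:19015914-19016014: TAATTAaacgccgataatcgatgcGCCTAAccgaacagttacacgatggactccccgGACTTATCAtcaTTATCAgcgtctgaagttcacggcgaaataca
nub intron, 2L:12620416-12620516: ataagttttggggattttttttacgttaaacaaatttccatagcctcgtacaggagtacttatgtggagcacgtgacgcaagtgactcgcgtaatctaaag
pros coding exon, 3R:11374699-11374799: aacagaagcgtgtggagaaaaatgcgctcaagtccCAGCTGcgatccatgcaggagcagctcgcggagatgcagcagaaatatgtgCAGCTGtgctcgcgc
The flw sequence holds TAATTA, a core that many homeodomain factors bind. The btsz sequence holds a match of CAGGTAG on the minus strand. It also holds TGATAA on the minus strand, and the plus strand has TTAGNC directly after it. The PKD sequence holds TAAGNC on the minus strand. The Msp300 sequence holds GAGAGAG and AGATAA, both on the minus strand. The nkd intron starts with TAATTA and then holds a match of TTAGNC on the minus strand. Further along lies a minus-strand match of TAAGNC, which shares bases with the nearer of a pair of minus-strand TGATAA matches. The coding exon of pros holds CAGCTG at a pair of positions. The Meltrin and nub sequences hold none of the 25 motifs.

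The gained regions were weak members of their list. Their median fold enrichment over the local background, as computed by the authors, was 2.63 (quartiles 2.29 and 3.20, range 1.62 to 10.2), against 4.11 (3.09 and 5.60) in the other regions. Ranked within the Pros-depleted EE list, the median gained region stood at percentile 16.2, against 54.0 for the other regions. Percentiles 0 to 25 held 378 gained regions. Percentiles 25 to 50 held 135, percentiles 50 to 75 held 56, and the top class held 6. They were also narrow, with a median of 326 bp, against 858 bp in the other regions, which can join several peaks. The summit held a median of 28 fragments (range 18 to 123), a number inferred from the authors' fold and p. The -log10 q was at least 5 in 263 gained regions, at least 10 in 106 and at least 20 in 24, and under 2 in 30. Strength is tied to the rule, since a weak peak more easily lacks a partner in the other lists, so these values are a description. Regions found in a single normal cell type among the 4 long lists also stood low when ranked within their own list, with medians at percentile 24.2 in EEs alone, 16.6 in progenitor cells alone and 20.6 in ECs alone. In the same order their median widths were 380, 314.5 and 335 bp, so they were narrow as well.

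**Figure D1:**
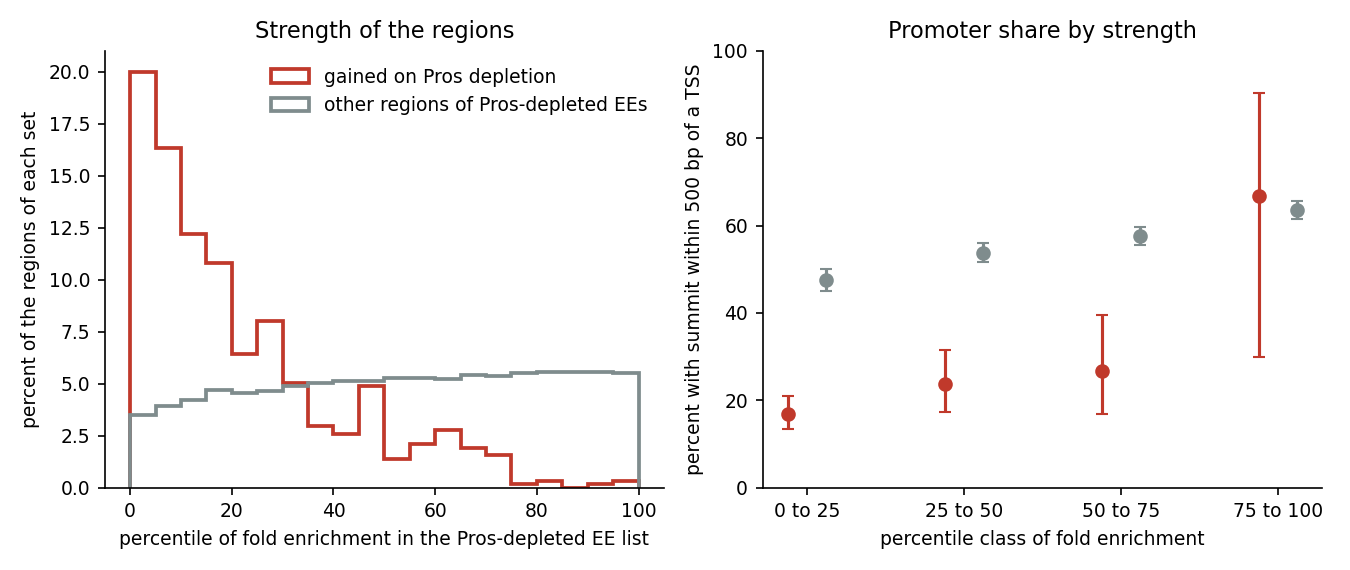
Left, share of regions (%) by percentile of fold enrichment in the Pros-depleted EE list, in classes of 5, for the 575 gained regions (red) and the 7609 other regions (grey). Right, share of regions (%) with the summit within 500 bp of a transcription start site (TSS), by percentile class of fold enrichment, with 95% Wilson intervals. The gained regions crowd at the low end, and their promoter share lies below that of the other regions in the 3 lower classes.

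The edges of the rule were as follows. Inside it, a gained region at HDAC11, a histone deacetylase gene (3R:24855848-24856132), lay 1 bp from a normal peak, and those nearest to Abl and r-l lay 8 bp and 27 bp away. In all, 16 gained regions lay within 100 bp of a normal peak. The gained peaks with the lowest -log10 q, nearest to CG31343, CG43103 and CG12084, were at 1.46, 1.52 and 1.52. Just outside the rule, the regions nearest to CG40191, jar and botv were left out because of an EC peak with a -log10 q of 1.63, 1.64 and 1.71. With these 3 counted, 7 of the other regions had a strongest normal peak with a -log10 q under 2, and in 33 normal peaks covered only 1 to 100 bases of the Pros-depleted EE peaks.

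The strongest gained region lay in an intron of flw (X:10397369-10398117), which encodes a catalytic subunit of protein phosphatase 1. Its peak had a fold of 10.2 with 108 fragments at the summit and ranked at percentile 98.7. The nearest normal peak was 10180 bp away. Next came an intron of Meltrin (3R:14680318-14680830), an ADAM-family metalloprotease gene, with a fold of 8.71 and 78 fragments. The remaining 8 of the 10 strongest had folds from 5.13 to 7.18. At promoters these were CG4839 (2L:10144540-10144969, fold 7.18), btsz (3R:14853685-14854420, fold 6.06), PKD (3R:18310776-18312027, fold 5.95), Damm (2R:11866045-11866649, fold 5.80), Msp300 (2L:5151090-5151631, fold 5.32) and Pax (2L:19410567-19411211, fold 5.26). The gene btsz encodes a synaptotagmin-like protein that organises actin at the apical side of epithelia, PKD is a protein kinase, Damm is a caspase, Msp300 a giant nuclear envelope protein of the nesprin family, and Pax is paxillin, an adaptor of focal adhesions. Introns of Chpf (X:13104398-13105470, fold 5.22, nearest TSS that of the ferritin gene Fer3HCH) and of heph (3R:31869471-31870048, fold 5.13), which encodes a polypyrimidine tract-binding protein, completed the 10. Of these 10 summits, 6 lay within 500 bp of a TSS, against 115 of the 575. The widest gained region lay at the promoter of Ass (3R:6643740-6645119, 1380 bp, fold 3.70), the gene of argininosuccinate synthase. The next (2L:12830703-12832025, 1323 bp, fold 5.03) lay more than 3 kb outside kek1, which encodes a feedback inhibitor of the EGF receptor. The region at PKD (1252 bp) followed.

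Most gained regions lay away from promoters. The summit was within 500 bp of a TSS of a protein-coding gene in 115 of 575 (20%, 16.9 to 23.5), against 56.2% (55.1 to 57.3) of the other regions of Pros-depleted EEs. Introns held 49.7% (45.7 to 53.8) of gained summits and 28.8% (27.8 to 29.8) of the others. Intergenic sequence held 13.7% (11.2 to 16.8) and 8.52% (7.91 to 9.16) by the same comparison. The median distance to a TSS was 1928 bp in gained regions and 285 bp in the others. More than 10 kb from any TSS lay 15.0% (12.3 to 18.1) of gained summits and 7.19% (6.63 to 7.79) of the others. The lower promoter share was also present at like strength. Between percentiles 0 and 25 it was 16.9% (13.5 to 21.0) in gained regions and 47.5% (45.1 to 50) in the others. Between percentiles 25 and 50 it was 23.7% (17.3 to 31.5) and 53.8% (51.6 to 56), and between 50 and 75 it was 26.8% (17 to 39.6) and 57.6% (55.5 to 59.8). In the top class, 4 of 6 gained regions (66.7%, 30 to 90.3) were at a promoter, against 63.6% (61.5 to 65.6) of the others. The intervals overlapped those of regions found in EEs alone, where 23.4% (21.3 to 25.7) were at promoters and 45.0% (42.4 to 47.6) in introns. In progenitor cells alone the promoter share was 38.5% (35.5 to 41.5), and in ECs alone 10.4% (9.28 to 11.6). Summits over 10 kb from any TSS made up 17.6% (15.6 to 19.6) in EEs alone and 16.9% (14.7 to 19.3) in progenitor cells alone. In ECs alone they made up 16.6% (15.2 to 18.0), and all 3 intervals overlap that of gained regions.

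**Figure D2:**
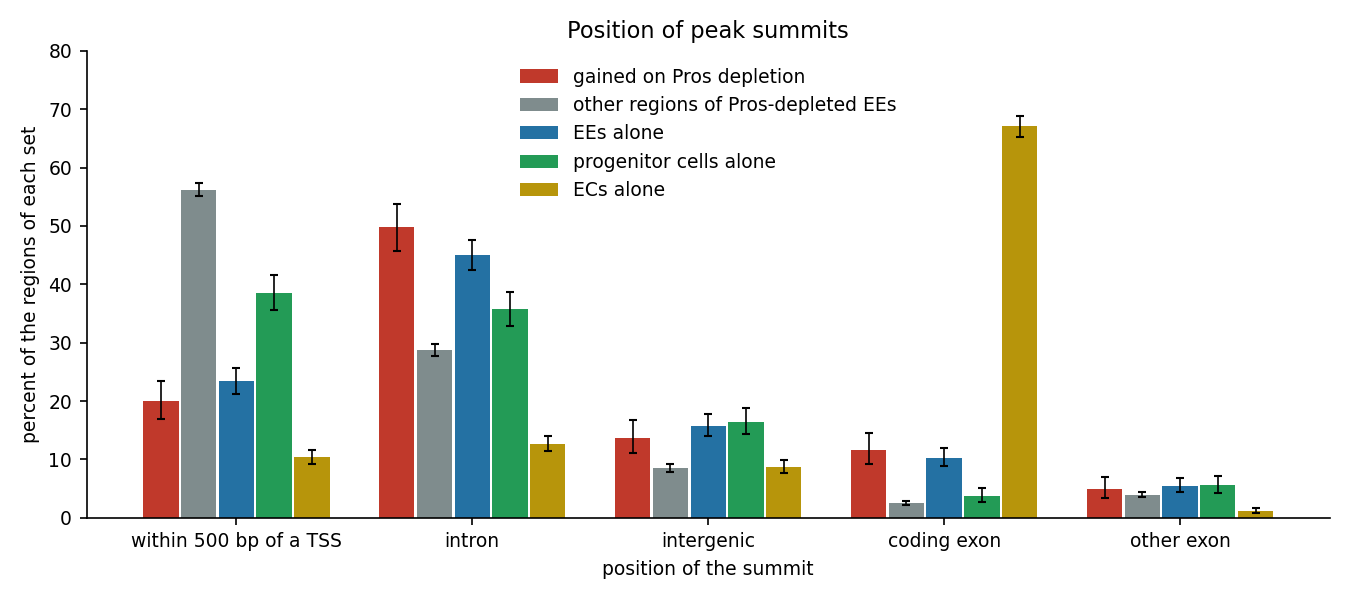
Share of regions (%) by position of the summit, with 95% Wilson intervals, in gained regions, the other regions of Pros-depleted EEs, and regions with a peak in EEs, progenitor cells or ECs alone among the 4 long lists. A summit within 500 bp of a TSS is counted there only. The gained regions (20% at promoters, 49.7% in introns) lie next to EEs alone (23.4% and 45.0%), and ECs alone stand apart with 67.1% in coding exons.

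The 115 gained promoters fell into a pair of kinds. In 46 of them (40%, 31.5 to 49.1) the gene had a normal peak within 500 bp of some TSS. In 69 (60.0%, 50.9 to 68.5), at 68 genes, no TSS of the gene had one. Over all protein-coding genes, 55.3% (54.4 to 56.1) had a normal peak within 500 bp of some TSS. The rule bears on this split, since a gained promoter has no normal peak touching it, so the split is a description. The strongest of the 69 with an upregulated gene, chosen after their values were seen, were tgy (X:19127110-19127524, fold 5.03, 20 bp from the TSS), a galactosyltransferase gene, CG5506 (3L:17883864-17884489, fold 4.91) and Syt4 (3R:7265968-7266839, fold 4.69), a synaptotagmin. An upregulated gene was nearest for 22 of the 69 (31.9%, 22.1 to 43.6) and for 10 of the 46 (21.7%, 12.3 to 35.6), with intervals that overlap.

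Exons made up 24.6% of all bases in gained regions and 35.6% in the other regions. The median gained region held no exonic base: 347 (60.3%, 56.3 to 64.3) had none, against 28.5% (27.5 to 29.5) of the others. At the other end, 78 gained regions (13.6%, 11 to 16.6) lay wholly in exons, against 3.65% (3.25 to 4.10). EEs alone were near the gained regions in these shares, with 24.7% of bases in exons. Of their regions, 56.9% (54.3 to 59.5) held no exonic base and 12.5% (10.9 to 14.4) lay wholly in exons. Summits in coding exons away from promoters made up 11.7% (9.28 to 14.5) of gained regions and 2.58% (2.24 to 2.96) of the others. EEs alone had 10.3% (8.83 to 12), progenitor cells alone 3.77% (2.76 to 5.13) and ECs alone 67.1% (65.3 to 68.9). The 67 gained regions of this kind were weaker and richer in G and C than the rest. Their median fold was 2.3, against 2.62 for the 286 in introns and 2.78 for the 115 at promoters. Their median G+C content in 200 bp around the summit was 55.5%, against 44.0% in introns and 43.0% at promoters. This was not particular to gained regions. Coding-exon summits of the other regions also had 55.5%, with a fold of 2.74, against 3.91 in introns and 4.31 at promoters. Those of EEs alone had 54.25% and a fold of 2.32, against 2.84 in introns and at promoters. In gained regions the exonic share of bases was 30.2% between percentiles 0 and 25, 18.9% between 25 and 50, 14.3% between 50 and 75 and 18.4% in the 6 regions of the top class. The part that sequence composition has in these peaks was not tested. Transposable elements overlapped 11 gained regions (1.91%, 1.07 to 3.39) and 1.85% (1.57 to 2.18) of the others.

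The normal peak nearest to a gained region was a median of 1302 bp away (quartiles 624 and 3111 bp). This value depends on how peaks are matched. The median was 692 bp with windows of 250 bp around summits, 769 bp with regions under 50% covered by normal peaks, and 2073 bp with a -log10 q of at least 5 in all lists, and the cell types below were not recomputed under these settings. With the full lists, the nearest normal peak was within 1 kb in 41.7% (37.8 to 45.8), within 5 kb in 86.8% (83.8 to 89.3) and within 10 kb in 95.8% (93.9 to 97.2). Measured the same way to the other 3 long lists, regions of EEs alone lay a median of 2165 bp away with 27.9% (25.6 to 30.3) within 1 kb. Progenitor cells alone had 2125 bp and 25.2% (22.6 to 28.0), and ECs alone 3976 bp and 20.2% (18.7 to 21.8). The nearest normal peak belonged to EEs in 223 cases, to progenitor cells in 215 and to ECs in 137. The most isolated gained regions were those nearest to CG43271 (2L:17900098-17900493, fold 2.74), 62710 bp from a normal peak, and to CG40498 (2R:954049-954332, fold 4.91), 45495 bp away. Those nearest to Prx1 (3L:15193518-15193756, fold 2.40) and Sdr (3R:14965310-14965590, fold 2.86), a secreted decoy of the insulin receptor, followed at 29784 and 20523 bp. The promoter region of btsz was the next, at 19772 bp, and it was the single one of these 5 at a promoter. Few gained regions lay together: 66 had another within 5 kb.

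**Figure D3:**
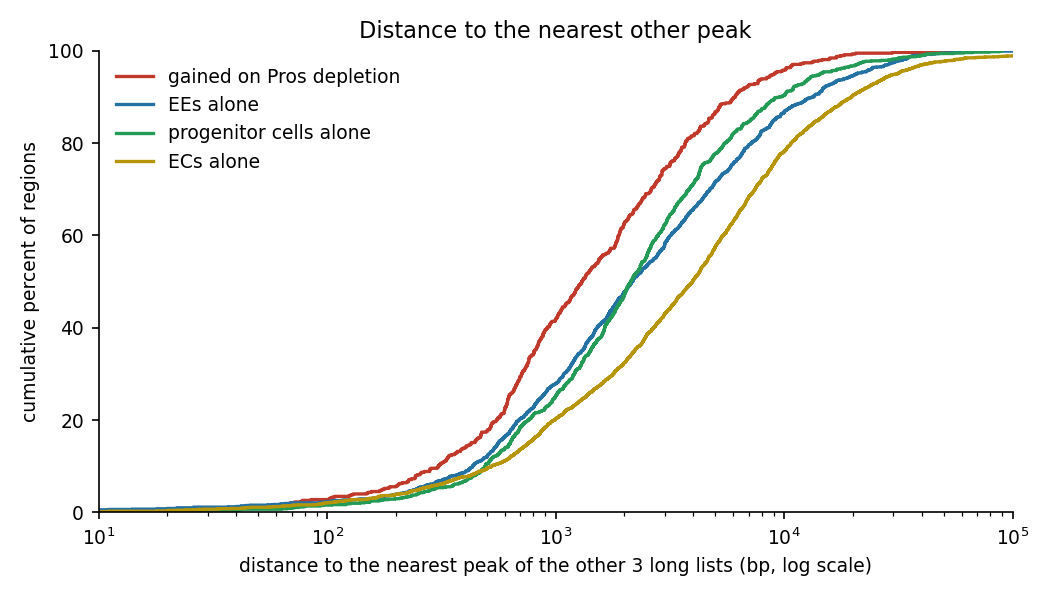
Cumulative share of regions (%) by distance to the nearest peak of the other 3 long lists, in bp on a log scale. As counted on the full lists, gained regions (median 1302 bp, 692 to 2073 bp under other settings) lie nearest, followed by progenitor cells alone (2125 bp), EEs alone (2165 bp) and ECs alone (3976 bp).

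Ttk-depleted ECs, a list the rule did not use, had a peak in 14 gained regions (2.43%, 1.46 to 4.05), against 29.8% (28.8 to 30.9) of the other regions. The share was 1.79% (1.22 to 2.63) in regions of EEs alone and 2.98% (2.09 to 4.22) in those of progenitor cells alone, with intervals that overlap that of gained regions. In ECs alone it was lower, at 0.971% (0.663 to 1.42). This list is shallow. In the other regions its share was 11.4% between percentiles 0 and 25 and 52.5% in the top class. In gained regions 13 of the 14 lay in the lowest class (3.44%, 2.02 to 5.79, against 11.4%, 9.97 to 13.1), and 0 of 56 between percentiles 50 and 75, where the Wilson interval allows up to 6.42%. The 5 strongest were at a promoter of Ank2 (3L:7713073-7713715, fold 3.91), which encodes an ankyrin that ties membrane proteins to spectrin, and near CG14454 (fold 2.94), psq (fold 2.82), which encodes a BTB-domain DNA-binding protein, Frq2 (fold 2.74), a frequenin calcium sensor, and sphinx2 (fold 2.66), a serine protease-like gene.

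Genes upregulated in the RNA-seq of Pros-depleted EEs were taken by name from the list of the study, of which 1647 matched protein-coding genes. The nearest gene was on it for 145 gained regions (25.2%, 21.8 to 28.9), at 123 different genes. The share was 22.3% (21.4 to 23.2) for the other regions of Pros-depleted EEs, so that the intervals overlap, and 11.8% (11.3 to 12.4) over all protein-coding genes. Regions of EEs alone had 13.6% (11.9 to 15.5), ECs alone 13.9% (12.6 to 15.3) and progenitor cells alone 19.2% (16.9 to 21.8). Each of these intervals lies below that of gained regions, for progenitor cells only just. When any gene whose body or 3 kb flanks reach the region was counted instead, the share was 34.1% (30.3 to 38.1) in gained regions and 32.6% (31.6 to 33.7) in the others. By nearest gene, the gained share was 30.4% with a -log10 q of at least 5, where the other regions were not recomputed. From the lowest to the top percentile class it was 23.3%, 27.4%, 33.9% and 16.7%. The other regions had 21.9%, 21.2%, 23.3% and 22.5%, with intervals that overlap in each class. The 145 regions had a median fold of 2.70, against 2.62 in the remaining 430, and 22.1% lay at promoters, against 19.3%. By position the share was 27.8% (20.5 to 36.6) at promoters and 27.6% (22.8 to 33.1) in introns. It was 17.9% (10.6 to 28.7) in coding exons and 17.7% (10.9 to 27.6) between genes, and these intervals overlap. In the same order, the other regions had 19.3%, 28.7%, 22.4% and 19.9%. Their intervals overlapped those of gained regions in each class, at promoters (18.2 to 20.5) only just. The 5 strongest regions near an upregulated gene were those of flw and Msp300, given above, and an intron of smash (3R:4667873-4668890, fold 5.08), which encodes a LIM-domain protein of adherens junctions, an intron of the LIM-domain gene Lmpt (3L:16866683-16867497, fold 5.06), and the promoter of tgy.

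The 575 regions had 514 different nearest genes, of which 457 had 1. Counting gene bodies and 3 kb to each side, 867 of 13945 protein-coding genes (6.22%) held a gained region. Their median length was 4651 bp, against 2166 bp over all genes, and the counts are not matched for length. Genes with 3 or more were mtd and pros with 4 each, and CG32373, CG6959, Meltrin, Shrm, Tet, cindr, kirre, px and shep with 3 each. All of these are between 18389 bp (cindr) and 394149 bp (kirre) long. They were chosen by the peak calls that are counted below, so an excess in Pros-depleted EEs is partly built in. At mtd, with folds of 2.10 to 3.02, there were 14 peaks in Pros-depleted EEs, against 12 in EEs, 9 in progenitor cells and 12 in ECs. The folds were 3.02 to 3.91 at CG32373, which shares its strongest region with Ank2, and 2.29 to 2.51 at CG6959. In Meltrin, whose strongest region was given above, the other 2 folds were 4.39 and 3.0, all 3 in introns. The gene had 6 peaks in Pros-depleted EEs, against 4 in each of EEs, progenitor cells and ECs. The adaptor gene cindr, a relative of CIN85, had 10 peaks in Pros-depleted EEs, against 4 in EEs, 5 in progenitor cells and 6 in ECs, with gained folds from 2.19 to 2.40. At px, a nuclear protein gene of wing vein patterning, the gained folds were 2.29 to 4.69. At shep, an RNA-binding protein gene, they were 1.75 to 2.97, at Tet 2.35 to 2.95, and at Shrm, an actin-binding protein gene, 2.06 to 2.68. At kirre, an adhesion gene of myoblast fusion, they were 2.04 to 2.86 with 16 peaks in Pros-depleted EEs, against 13 in EEs, 22 in progenitor cells and 28 in ECs. In the same order, peaks numbered 12, 9, 16 and 14 at Tet and 10, 10, 10 and 11 at px. At CG32373 they numbered 8, 6, 5 and 6, and at CG6959 6, 2, 4 and 3. At Shrm they numbered 8, 6, 5 and 5, and at shep 12, 11, 9 and 10.

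The locus of pros itself (3R:11328480-11407627) held 4 gained regions. Those at 3R:11337385-11337645 (fold 3.57, 31 fragments) and 3R:11343056-11343877 (fold 3.72, 82 fragments) lay in introns. That at 3R:11370671-11370958 (fold 2.15, 123 fragments) also lay in an intron, 1019 bp from a normal peak, and that at 3R:11374546-11374889 (fold 2.84, 114 fragments) lay wholly in a coding exon. The last 2 stood on a high local background, of 56.6 and 39.6 fragments, against a lowest value of 7.75 in this library. The background was also high at neighbouring peaks in both libraries of the prosV1 driver. At 3R:11366581-11368103 it was 49.8 fragments in Pros-depleted EEs and 43.3 in EEs, and at 3R:11371978-11373097 it was 47.9 and 49.4. In progenitor cells it was 18.1 and 22.2 there, and in ECs 16.3 and 25.5. Pros-depleted EEs carry a UAS-pros-RNAi transgene with pros sequence, and its part in these peaks was not tested. In the other direction, 4 regions here had an EE peak and no Pros-depleted EE peak, at 3R:11326593-11326850 (fold 3.57), 3R:11334276-11334829 (fold 4.12), 3R:11341306-11341735 (fold 2.14) and 3R:11409119-11409335 (fold 2.01). Over all arms this held for 2099 of 8818 regions with an EE peak.

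**Figure D4:**
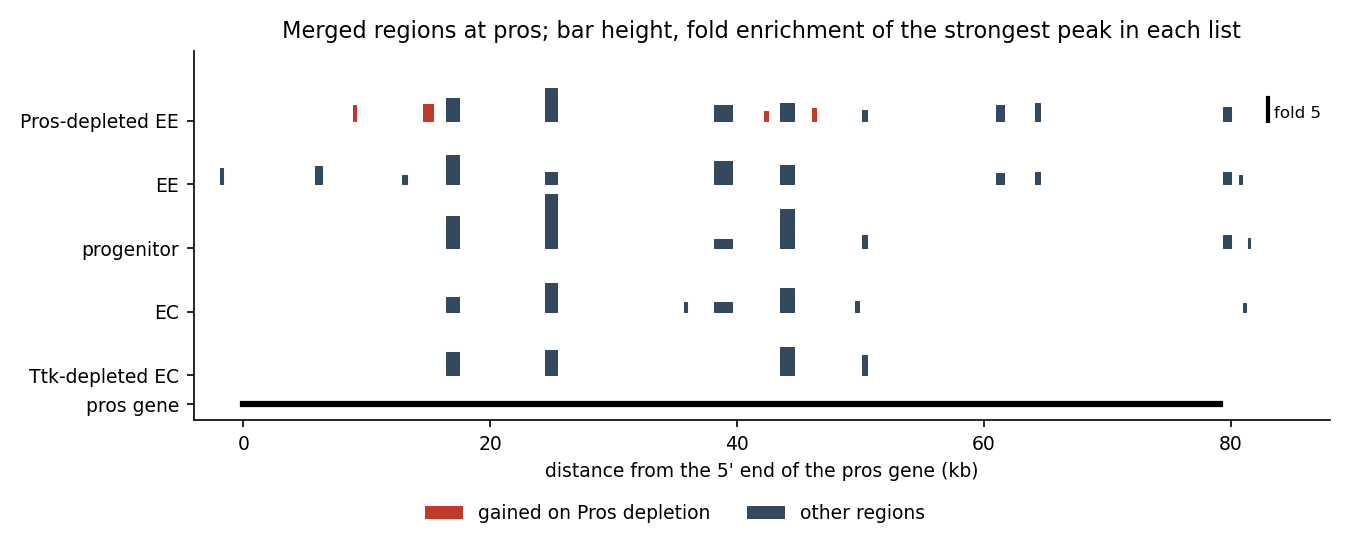
Merged regions along the pros locus by distance from the 5' end of the gene in kb, with a row for each of the 5 lists and the gene as a line at the bottom. Bar height is the fold enrichment of the strongest peak of that list in the region (scale bar, fold of 5). The 4 gained regions (red, folds 2.15 to 3.72) appear in the Pros-depleted EE row alone, among other regions (dark).

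Gained regions were counted at 12 lists of genes chosen for the biology of the gut, again by gene body and 3 kb to each side. The median gene of each list, from 2241 to 19099.5 bp, is longer than the median of all genes. For cell identity, 3 of 20 progenitor genes, 4 of 24 EE genes and 3 of 17 EC genes had a gained region (15.0%, 16.7% and 17.6%, with intervals from 5.24 to 41.0 over the 3 lists), beside 6.22% over all genes. The intervals of the 3 cell types overlap almost wholly. Among progenitor genes these were Sox100B (fold 1.85), a Sox factor, spdo (fold 2.33), a membrane protein that promotes Notch signalling, and pnt (folds 2.51 and 2.25), an ETS factor downstream of the EGF receptor. Among EE genes they were ITP (folds 4.29 and 2.28), a peptide hormone, pros, amon (fold 3.09), a prohormone convertase, and Syt1 (fold 2.71), the calcium sensor of vesicle release. The summit counted for amon was intergenic, with a TSS of TwdlQ nearest, at 3196 bp. The TSS nearest to the stronger ITP summit was that of CG4622, 5095 bp away. Among EC genes they were nub (2L:12620062-12620922, fold 4.83), which encodes the POU factor Pdm1, Jon65Aiii (fold 2.51), a digestive serine protease, and Ance (fold 2.24), a peptidase. The summit counted for Jon65Aiii lay in a coding exon, 548 bp from a TSS of its relative Jon65Ai. The nub region lay in an intron with 64 fragments, 1310 bp from a normal peak, and nub was on the list of upregulated genes.

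In the Notch pathway 5 of 28 genes had a gained region (17.9%, 7.88 to 35.6): mam (fold 2.74), a coactivator, Nct (folds 2.71 and 2.63), a subunit of gamma-secretase, spdo, and E(spl)mgamma-HLH with its neighbour E(spl)mdelta-HLH, Notch target genes that share a region. The summits counted for Nct lay at TSSs of HDAC11 and CG7006. The region at the E(spl) genes (3R:25999435-25999828, fold 2.14) lay 124 bp from the TSS of E(spl)mgamma-HLH, 4558 bp from a normal peak, and had a peak in Ttk-depleted ECs. Of the proneural and neuroblast genes, 4 of 28 had one (14.3%, 5.7 to 31.5): nub, pros, grh (fold 3.15) and brat (fold 2.17), a growth repressor of neural stem cell progeny. The summit at grh lay 41 bp from a TSS of Orai, and that at brat, in a coding exon, 1083 bp from one of CG17568. Of 33 genes of JAK-STAT, EGFR, Wnt and BMP signalling, 5 had one (15.2%, 6.65 to 30.9). The 4 with the highest folds were nkd (3L:19015723-19016146, fold 4.80), an inhibitor of Wnt signalling, vn (fold 4.34), an EGF receptor ligand, kek1 (fold 2.69) and pnt. The TSS nearest to the nkd summit, 12712 bp away, was that of SmydA-2. The wide region given above with kek1 lies beyond its 3 kb flank and is not counted here. In the cell cycle list 3 of 39 had one (7.69%, 2.65 to 20.3), near the 6.22% over all protein-coding genes. They were E2f1 (3R:21628244-21628789, fold 4.0), Cdk4 (fold 1.85) and dup (fold 2.11), a replication licensing gene. The summit at Cdk4 lay 287 bp from a TSS of RpLP2, and that at dup 550 bp from one of SRPK. Of chromatin remodelling genes 2 of 27 had one (7.41%, 2.06 to 23.4), MBD-like (fold 2.87) and ttk (fold 2.07). The summit at MBD-like had a TSS of BckdhA nearest, at 1039 bp.

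For other cells that a gut sort could hold, 1 of 22 muscle genes had a gained region (4.55%, 0.807 to 21.8, beside 6.22% over all protein-coding genes), Msp300 (folds 5.32 and 2.2), the gene of the nesprin given above. Of genes of neurons and glia 3 of 19 had one (15.8%, 5.52 to 37.6), Syt1, Appl (fold 2.56), the fly relative of the amyloid precursor protein, and brp (fold 2.40), a protein of synaptic active zones. The TSS nearest to the Appl summit, 5031 bp away, was that of vnd. Of hemocyte and fat body genes 2 of 18 had one (11.1%, 3.10 to 32.8), Lpin (fold 3.25), a regulator of fat storage, and ush (fold 1.96), a cofactor of GATA factors, whose summit lay at a TSS of lwr. Of 10 tracheal genes 0 had one, where the Wilson interval allows up to 27.8%. The part that other cells in the sort have in the gained regions was not tested. Counting a gene once in each list it is on, 35 genes had a gained region, and 19 with windows of 3 kb around TSSs in place of gene bodies.

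Motifs were counted as exact matches on either strand in 200 bp around the summit. Of 25 motifs, 4 had a share in gained regions above that in the other regions with intervals apart. They were AGATAA (21.4%, 18.2 to 24.9, against 16.5%, 15.7 to 17.4) and TGATAA (27.7%, 24.2 to 31.4, against 20%, 19.1 to 20.9), which GATA factors bind, and TAAGNC (28.7%, 25.1 to 32.5, against 20.8%, 19.9 to 21.7) and TTAGNC (26.3%, 22.8 to 30, against 20.1%, 19.2 to 21.0), which resemble the sequence that Pros binds. Another 4 were lower: GAGAGAG, bound by the GAGA factor (4.52%, 3.10 to 6.54, against 11.1%, 10.4 to 11.8), CACACACA (6.61%, 4.85 to 8.94, against 10.7%, 9.98 to 11.4), and the promoter motifs TATCGATA (1.74%, 0.947 to 3.17, against 4.27%, 3.84 to 4.75) and GGTCACAC (0.522%, 0.178 to 1.52, against 4.93%, 4.46 to 5.44). Matches of TGATAA and TAAGNC can share bases, as in the nkd intron above. Much of this moved with position. Among summits over 500 bp from a TSS, 460 gained and 3331 other, the shares of AGATAA were 22.2% (18.6 to 26.2) and 21.8% (20.4 to 23.2) and those of TGATAA 27.2% (23.3 to 31.4) and 25.2% (23.7 to 26.7). TAAGNC stood at 27.4% (23.5 to 31.6) and 22.3% (20.9 to 23.7), and TTAGNC at 24.8% (21.1 to 28.9) and 20.2% (18.9 to 21.6), with intervals that overlap slightly. GAGAGAG stayed lower, at 4.13% (2.66 to 6.36) and 11.3% (10.3 to 12.5), and CACACACA at 6.96% (4.97 to 9.66) and 11.9% (10.8 to 13.0). The promoter motifs did not stay apart. TATCGATA stood at 1.09% (0.465 to 2.52) and 0.781% (0.533 to 1.14), and GGTCACAC at 0% (0 to 0.828) and 0.450% (0.273 to 0.742). Over all positions, regions of EEs alone had 19.3% (17.4 to 21.5) with TAAGNC and 23.6% (21.5 to 25.9) with TTAGNC. They had 16.3% (14.4 to 18.3) with AGATAA, 7.59% (6.32 to 9.10) with GAGAGAG and 10.96% (9.43 to 12.7) with CACACACA. Low shares of the last pair were not particular to gained regions. Progenitor cells alone had 4.56% (3.44 to 6.03) with GAGAGAG and 6.55% (5.18 to 8.25) with CACACACA, near the gained shares. ECs alone were lower still, at 1.64% (1.23 to 2.2) and 2.58% (2.04 to 3.25). A match is not a bound site, and no match says only that these letters are not in the window.

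For each of the remaining motifs the intervals overlapped in 200 bp, and shares are of gained regions, against the other regions. The core of Su(H) sites, through which Notch acts on its target genes, TGGGAA, had a match in 11.7% (9.28 to 14.5), against 10.5% (9.87 to 11.3). The box bound by Snail-family factors such as Esg, CAGGTG, had one in 8.70% (6.66 to 11.3), against 8.04% (7.45 to 8.68). In 100 bp its intervals also overlapped, at 3.65% (2.4 to 5.52), against 4.43% (3.99 to 4.91). In 400 bp its share was higher with intervals apart, at 20% (16.9 to 23.5), against 15.2% (14.4 to 15.98). This held only just among summits over 500 bp from a TSS, at 19.1% (15.8 to 22.97), against 14.5% (13.4 to 15.77). The box of proneural factors, CAGCTG, which is in the pros exon above, had one in 10.4% (8.19 to 13.2), against 13.1% (12.4 to 13.9). Its share was lower with intervals apart in 100 bp, at 4.52% (3.10 to 6.54), against 7.25% (6.69 to 7.86). The same held in 400 bp, at 16.2% (13.4 to 19.4), against 22.3% (21.4 to 23.3). Among summits over 500 bp from a TSS its intervals overlapped in both windows. The Stat92E site of the JAK-STAT pathway, TTCNNNGAA, had one in 3.83% (2.54 to 5.72), against 4.89% (4.43 to 5.40). The homeodomain core in the flw and nkd introns, TAATTA, had one in 7.83% (5.90 to 10.3), against 6.98% (6.43 to 7.57). The octamer of POU factors such as Pdm1, ATTTGCAT, had one in 2.78% (1.72 to 4.47), against 1.71% (1.44 to 2.02). The AP-1 site, TGANTCA, had one in 9.39% (7.27 to 12.1), against 7.73% (7.15 to 8.35). The core of Sox factors, ACAAAG, had one in 13.0% (10.5 to 16.0), against 13.6% (12.9 to 14.4). The forkhead site, TGTTTAC, had one in 5.91% (4.26 to 8.15), against 6.97% (6.41 to 7.56). The single site of nuclear receptors, AGGTCA, had one in 4.35% (2.96 to 6.34), against 3.68% (3.28 to 4.13). The rest were rare. The longer site of the nuclear receptor Hnf4, CAAAGTCC, had one in 1.22% (0.591 to 2.49), against 0.447% (0.320 to 0.624). The Zelda site CAGGTAG was in 1.57%, against 1.10%, and the Ttk site GGTCCTG in 0.696%, against 0.447%. The CREB site TGACGTCA was in 0.174%, against 0.670%, and the Grh site AACCGGTT in 0.348%, against 0.513%. For E2F, the form TTTCCCGC was in 1.22%, against 1.34%, and the form TTTGGCGC in 1.04%, against 1.47%.

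**Figure D5:**
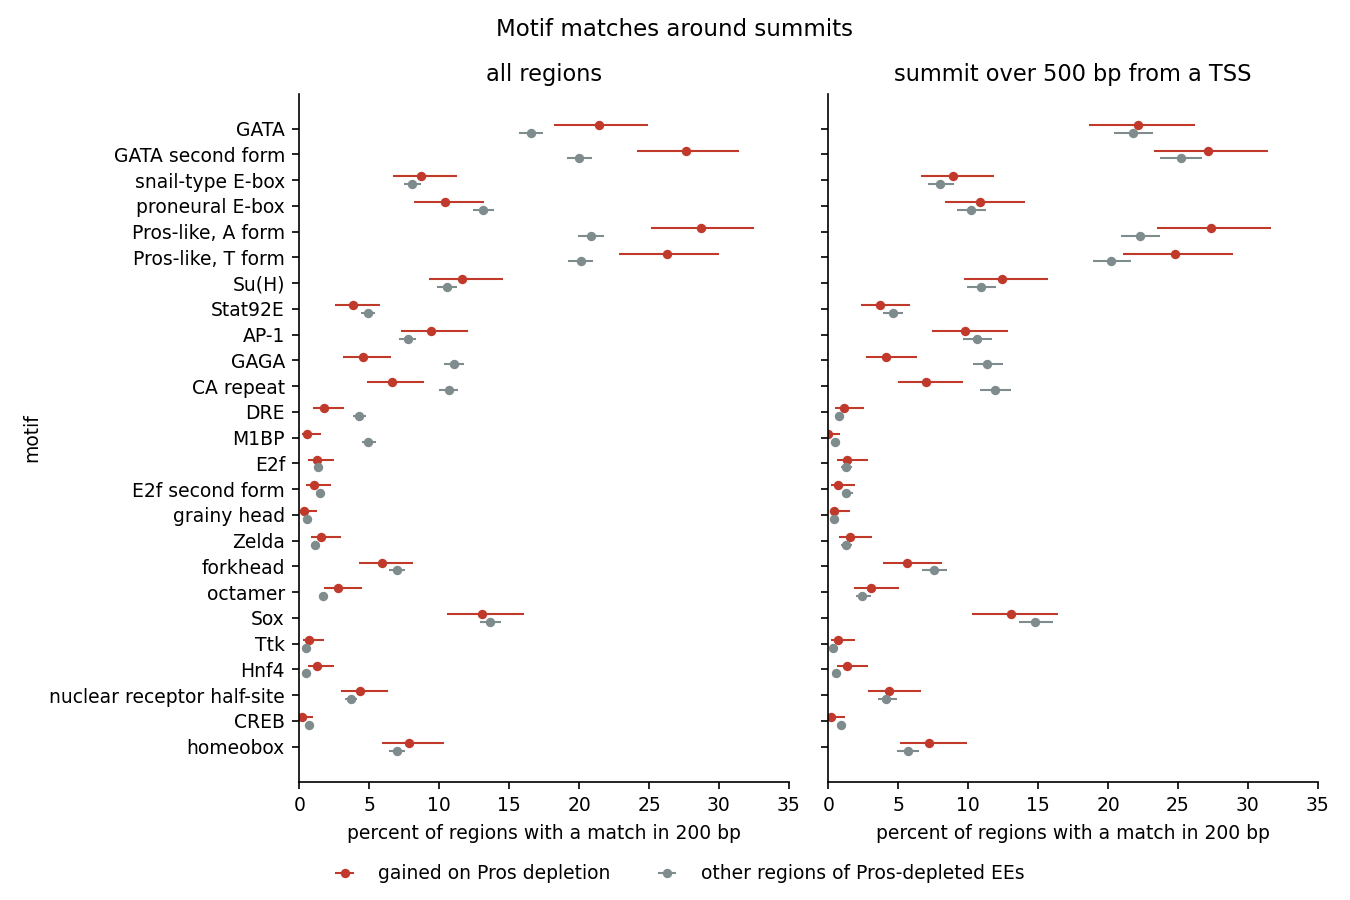
Share of regions (%) with at least 1 match of each of 25 motifs in 200 bp around the summit, with 95% Wilson intervals, for gained regions (red, upper of each pair) and the other regions of Pros-depleted EEs (grey). Left, all regions; right, summits over 500 bp from a TSS (460 and 3331). The GATA motifs stand apart on the left and overlap on the right, and GAGA and the CA repeat are lower in gained regions on both sides.

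By chromosome arm, gained regions made up 7.70% (6.42 to 9.21) of Pros-depleted EE regions on 2L, 7.36% (6.20 to 8.71) on 2R, 7.62% (6.44 to 8.99) on 3L, 6.65% (5.61 to 7.88) on 3R and 6.04% (4.94 to 7.36) on X, with overlapping intervals. On 4 they were 2 of 74 (2.70%, 0.744 to 9.33).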

How the data were processed

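ATAC-seq peaks of 5 sorted cell populations, 1 library each, were used as deposited. The authors trimmed reads with Cutadapt, mapped them to BDGP6 with Bowtie2, took out multimapped reads, duplicates and reads in blacklisted regions, and ran MACS3 on each sample. Its settings are not given in the sources used here, and the deposited -log10 q values start just above that of a q of 0.05. The deposited values are the fold enrichment of each summit over its local background, a ratio, and its -log10 p and -log10 q, as the authors' caller gave them. Whether Tn5 cut sites were shifted, and the depth, are not given in the sources used here. Depth sets which weak regions pass as peaks. Because a peak call has a threshold, a region without a call in one list can still carry signal there.

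Peaks on 6 chromosome arms were merged where they overlapped or touched. Summit fragments and local background were solved from fold and p with a pseudocount of 1. The nearest TSS came from protein-coding genes and exonic bases from all genes of Ensembl release 115, and sequence from the Release 6 genome. Shares have 95% Wilson intervals, which cover counting error only. Populations were compared without a test, since each had a single library. Genes upregulated after Pros depletion were read by name only from the study's own list: 1741 names, of which 1725 matched. The members and the gene, marker and motif lists were chosen with earlier results of these data known.

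Regions and genes named were the 10 gained regions with the highest fold, the 3 widest, those at pros, genes with 3 or more (body and 3 kb to each side), listed genes with a gained region (up to 4 per list, highest fold first), the 5 farthest from a normal peak, the 5 strongest with a Ttk-depleted EC peak and the 5 strongest nearest to an upregulated gene. Outside this rule, and chosen after their values were seen, are the regions at the edges of the selection, the promoters of CG5506 and Syt4, and E(spl)mdelta-HLH, beyond the 4 Notch genes the rule takes. Up to 8 sequences (summit and 50 bp to each side) were chosen from these. Alternatives were stricter q, equal numbers of peaks, other merging, summit windows, partial cover, leaving out driver and target loci, and other TSS, exon, gene and motif windows. Scripts were tested on simulated data and run with matplotlib 3.10.9, pandas 2.3.3, numpy 2.4.6 and SciPy 1.17.1 under Python 3.11.15.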

Additional observations from a re-analysis of the deposited data

Results flagged for a closer look

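Outside the 6 chromosome arms, in sequence that the comparisons do not use, Pros-depleted EEs had 60 peaks, of which 4 touched no peak of a normal cell type. They lay on 4 unplaced or other sequences, 0 of them on Y, with a highest fold of 2.97. Counted the same way against the other 3 long lists, EEs had 3 such peaks of 44, progenitor cells 2 of 29 and ECs 50 of 108.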

How the results depend on the processing

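Of 62 values under alternatives, 38 stayed within their interval or within 1.5 times the main count, and 24 moved. With a -log10 q of at least 5 in the Pros-depleted EE list, 263 gained regions were left, with 16.2% of bases in exons, a median percentile of 33.5 and 30.4% nearest to an upregulated gene. With the same minimum in all lists there were 351, with 24.2% at promoters, 19.7% of bases in exons, a median of 2073 bp to a normal peak, percentile 33.8, 0.570% with a Ttk-depleted EC peak and 29.9% nearest to an upregulated gene. With 8466 peaks in each long list the median distance was 1658.5 bp, and with merging within 250 bp it was 1535.5 bp. With windows of 250 bp around summits there were 1066 regions, 28.3% at promoters, a median distance of 692 bp and percentile 20.04. Where under 50% of the peak was covered by normal peaks, these were 23.6%, 769 bp and percentile 18.5. The promoter share was 16.0% with a TSS window of 250 bp and 31.5% with 1 kb. Counting gene bodies with 3 kb to each side, 34.1% were at an upregulated gene. With 3 kb around TSSs, 19 listed genes had a gained region. The number was 561 without regions that have a Ttk-depleted EC peak and 570 without the driver and target loci. Of 25 motifs, 8 had intervals apart in 200 bp, 6 in 100 bp and 10 in 400 bp. The causes were not tested. With 1 library per population, the spread between libraries is unknown, and weak peaks near the calling threshold limit what a missing peak can show. No paired analysis was possible because each population has 1 library and the results come from no test.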
